A study of Mus musculus with 8 samples.

Results

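The genes described here were 8 genes of cholesterol synthesis, chosen by name: Srebf2, Hmgcs1, Sqle, Idi1, Fdps, Fdft1, Lss and Msmo1. They were 8 of the 18193 mouse genes that had a probe set with 1 gene symbol on the Affymetrix Mouse Genome 430 2.0 array, and every probe set annotated to them was used, 21 of 45101. RNA of whole liver of BALB/c mice, 8 weeks old and weighing 25 to 30 g, was read in 4 groups of 2 arrays, with the RNA of 3 mice pooled on each array. All mice had received a recombinant adenovirus (rAd.) through the penile vein 5 days before a 78% liver resection (LR), which carried either human A20, a ubiquitin-editing inhibitor of NF-κB, or the control protein βgalactosidase (βgal). The pre-βgal and pre-A20 groups were the lobes taken out at resection, and the post-βgal and post-A20 groups were the liver that remained 24 h later. The transgenes were expressed in 30% to 40% of hepatocytes according to the labels, no liver without a virus was among the arrays, and the treatment text of the post-A20 arrays repeats that of the βgal arrays while their titles and descriptions say A20.

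Cholesterol is built from acetyl-CoA through mevalonate, isoprenoid units, farnesyl diphosphate, squalene and lanosterol, and the liver is one of its main sites of synthesis. SREBP-2, the product of Srebf2, is held in the endoplasmic reticulum by SCAP and INSIG proteins when sterols are plentiful; when they are scarce it moves to the Golgi, is cut by the proteases encoded by Mbtps1 and Mbtps2, and its released part turns on nearly every enzyme of the pathway. It binds short DNA elements (sterol regulatory elements, SREs), usually beside sites for the factors NF-Y, which binds CCAAT, and Sp1, which binds GC boxes.

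Promoter windows were taken from RefSeq for the mouse assembly GRCm38.p6, 250 bases before to 50 bases after the annotated start, 5′ to 3′ on the gene's own strand. Such a window was at hand for 5 of the 8 genes. Hmgcs1 and Srebf2 are shown because their windows hold an SRE-like core. Among these 5 genes, Msmo1 is shown because its signal differed most between the groups, and Lss because it differed least. Capitals mark matches, on either strand, to TCACNCCAC (an SRE core), to CCAAT (bound by NF-Y), to GGGCGG (a GC box), to CACGTG (an E-box) or to TCACCCCA, a shorter form of the SRE core added after the sequences had been seen.
Hmgcs1, chr13:119690101-119690400, plus strand: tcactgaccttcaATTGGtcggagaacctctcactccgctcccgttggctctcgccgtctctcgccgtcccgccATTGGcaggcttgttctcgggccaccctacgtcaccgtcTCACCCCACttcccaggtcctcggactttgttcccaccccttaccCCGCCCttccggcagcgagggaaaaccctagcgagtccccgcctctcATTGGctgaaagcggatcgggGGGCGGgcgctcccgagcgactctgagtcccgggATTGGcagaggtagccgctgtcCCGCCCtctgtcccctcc
Srebf2, chr15:82147019-82147318, plus strand: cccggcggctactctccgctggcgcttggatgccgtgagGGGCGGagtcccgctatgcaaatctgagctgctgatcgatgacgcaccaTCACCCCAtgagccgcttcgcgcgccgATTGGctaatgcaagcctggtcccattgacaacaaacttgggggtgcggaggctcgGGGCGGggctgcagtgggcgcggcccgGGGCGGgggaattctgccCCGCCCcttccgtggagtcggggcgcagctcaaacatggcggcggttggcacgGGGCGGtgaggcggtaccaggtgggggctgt
Msmo1, chr8:64733529-64733828, minus strand: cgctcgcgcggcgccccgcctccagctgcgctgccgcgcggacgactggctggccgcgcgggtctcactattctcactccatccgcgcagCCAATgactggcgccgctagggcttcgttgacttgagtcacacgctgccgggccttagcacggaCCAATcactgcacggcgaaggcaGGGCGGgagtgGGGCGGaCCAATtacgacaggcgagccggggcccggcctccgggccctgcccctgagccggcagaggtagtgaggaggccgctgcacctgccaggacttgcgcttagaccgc
Lss, chr10:76531355-76531654, plus strand: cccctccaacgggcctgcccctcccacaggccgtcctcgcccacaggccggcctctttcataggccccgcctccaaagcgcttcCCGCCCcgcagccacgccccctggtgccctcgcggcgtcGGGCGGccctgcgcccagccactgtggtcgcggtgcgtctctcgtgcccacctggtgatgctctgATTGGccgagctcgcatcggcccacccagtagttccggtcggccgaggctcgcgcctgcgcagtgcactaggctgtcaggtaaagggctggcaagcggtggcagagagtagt
The Hmgcs1 window held the only match to TCACNCCAC among the 5, as TCACCCCAC starting 137 bases before the start, and 1.24% of all 32851 windows hold such a match. The shorter TCACCCCA, which lies within that match, was also found in the Srebf2 window, 162 bases before the start, and is held by 1.56% of all windows. CCAAT was in all 5 windows, 4 times in Hmgcs1, 3 times in Msmo1, 2 times in Idi1 (chr13:8885356-8885655, plus strand) and 1 time each in Srebf2 and Lss, and 37.4% of all windows hold it. GGGCGG was in all 5 as well, 5 times in Srebf2, 3 times in Hmgcs1, 2 times in Msmo1 and in Lss and 1 time in Idi1, against 35.7% of all windows. CACGTG was in none of the 5 and in 7.15% of all windows. Such matches are letters in a window, and binding was not measured.

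Values are signals on a linear scale, and probe sets differ in how strongly they bind, so levels were compared only between arrays and never between genes. The array medians lay between 153 and 166. The 3′ to 5′ ratio of the β-actin control probe sets, which grows as RNA is degraded, was 7.0 and 1.27 in the pre-βgal arrays and 3.64 and 1.43 in the post-βgal arrays (replicates 1 and 2), and 1.31 to 1.62 in the 4 A20 arrays. Both βgal replicate 1 arrays thus stood apart. Of the 21 probe sets, 20 reached a mean of 40 in at least 1 group. The exception, Fdps 1438150_at, lay between 30.6 and 40.9. Of several probe sets of a gene, the one with the highest mean stood for the gene. Log2 fold changes (FC) are on the log2(signal + 16) scale with the standard error (SE) of the limma model, and a gene was called where its p, adjusted by Benjamini-Hochberg over all 17790 genes tested, was under 0.05.

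Srebf2 (1452174_at), the regulator of the pathway, had signals of 484 and 510 in pre-βgal, 595 and 510 in post-βgal, 470 and 402 in pre-A20, and 502 and 423 in post-A20. All 8 values lay within a narrow band. Both pre-A20 arrays were below both pre-βgal arrays and both post-A20 arrays below both post-βgal arrays, whereas arrays before and after LR overlapped with either transgene.

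Hmgcs1 (1433443_a_at) encodes the cytosolic HMG-CoA synthase, which makes the precursor of mevalonate. Its signals were 5415 and 3374 in pre-βgal, 6440 and 5556 in post-βgal, 3489 and 3939 in pre-A20, and 4439 and 3061 in post-A20. The post-βgal arrays were the 2 highest of the 8, and the 2 pre-βgal arrays were far apart from each other. Idi1 (1451122_at), the isomerase that interconverts the 2 isoprenoid building blocks, had signals of 1132 and 1615 in pre-βgal, 2454 and 2272 in post-βgal, 1585 and 2721 in pre-A20, and 2057 and 1274 in post-A20. The βgal groups did not overlap, while 1 pre-A20 array lay within the pre-βgal values and the other was the highest of the 8.

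Fdps (1423418_at) encodes farnesyl diphosphate synthase, at the point where the branches to other isoprenoids leave. Its signals were 1746 and 2010 in pre-βgal, 2286 and 2347 in post-βgal, 1964 and 2412 in pre-A20, and 1884 and 1621 in post-A20. After LR the arrays were higher than before it with βgal and lower than before it with A20. Fdft1 (1448130_at), squalene synthase, which commits the pathway to sterols, had signals of 1163 and 1175 in pre-βgal, 1509 and 1227 in post-βgal, 1296 and 1315 in pre-A20, and 927 and 831 in post-A20. The post-A20 arrays were the 2 lowest of the 8.

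Sqle (1415993_at), squalene epoxidase, a rate-limiting enzyme of the sterol part of the pathway, had signals of 478 and 800 in pre-βgal, 2222 and 2100 in post-βgal, 922 and 1123 in pre-A20, and 1346 and 1453 in post-A20. No pair of groups overlapped, in the ascending order pre-βgal, pre-A20, post-A20 and post-βgal. Lss (1420013_s_at), lanosterol synthase, which closes the sterol rings, had signals of 1383 and 1688 in pre-βgal, 1492 and 1354 in post-βgal, 1498 and 1192 in pre-A20, and 1465 and 1155 in post-A20. Its 4 groups overlapped in each of the 4 comparisons of groups. Msmo1 (1423078_a_at), a methylsterol monooxygenase, which takes part in removing methyl groups from the sterol ring, had signals of 516 and 1080 in pre-βgal, 2188 and 2381 in post-βgal, 2120 and 2753 in pre-A20, and 1416 and 1618 in post-A20. The pre-βgal arrays were the 2 lowest, the post-A20 arrays came next, and the pre-A20 and post-βgal arrays overlapped at the top.

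**Figure D1:**
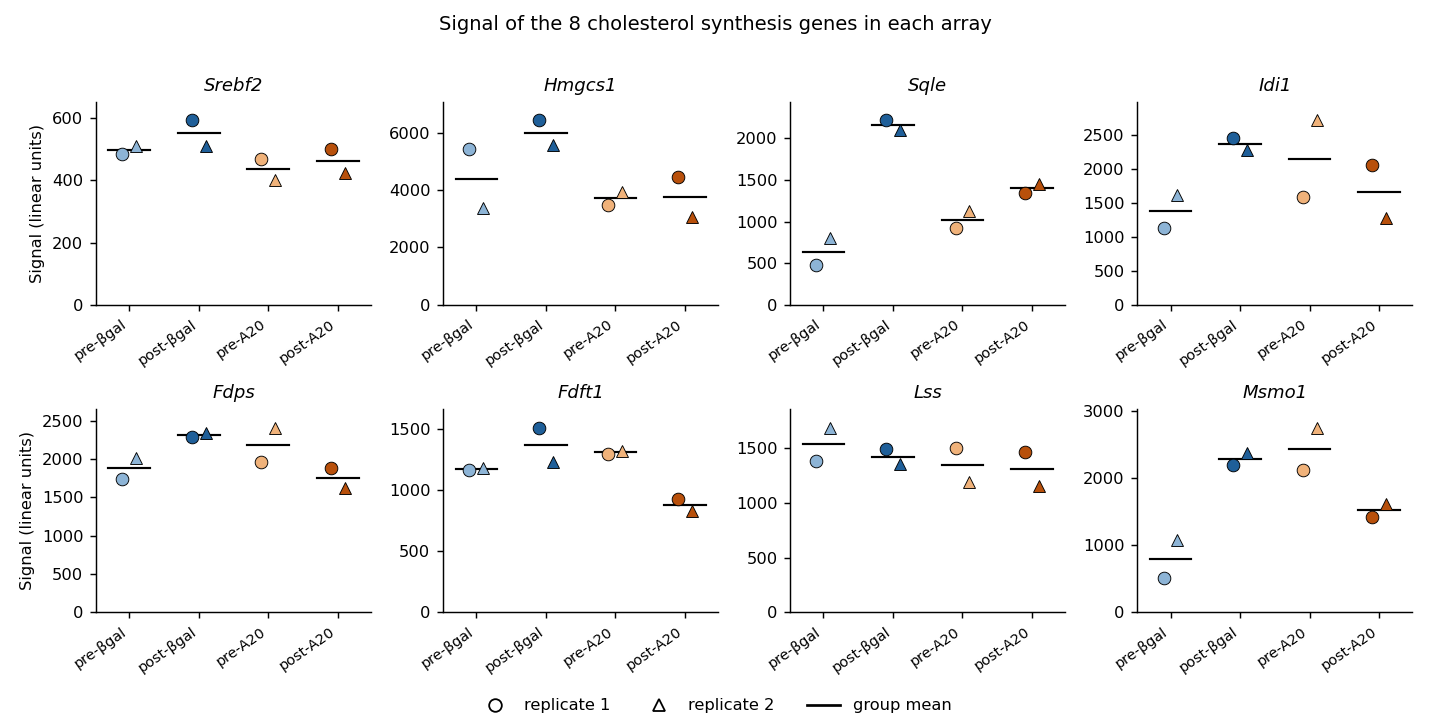
Signal (linear units, axes from 0) of the 8 genes in each array, by group; circles are replicate 1, triangles replicate 2 and black lines group means (n = 2 arrays). Sqle and Msmo1 moved most between groups, with post-βgal means of 2161 and 2285 against pre-βgal means of 639 and 798, while Lss means stayed between 1310 and 1536.

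The first comparison asked how LR changed the genes in livers with the control virus. Sqle rose 3.43-fold from pre-βgal to post-βgal (log2 FC 1.78, SE 0.25, adjusted p = 0.0189). It was the only one of the 8 called, while 2.25% of all genes tested were called in this comparison. Msmo1 was 3.01-fold higher and just missed the threshold (log2 FC 1.59, SE 0.32, adjusted p = 0.052). The log2 FC was 0.80 for Idi1 (SE 0.33, adjusted p = 0.21), 0.48 for Hmgcs1, 0.30 for Fdps, 0.22 for Fdft1, 0.14 for Srebf2 and -0.10 for Lss. The median of the 8 was 0.39, against -0.05 over all genes tested. In 6 of the 8 (all but Srebf2 and Lss) both post-βgal arrays were above both pre-βgal arrays, which held for 20.4% of all genes. None of the 8 lay the other way, which held for 33% of all genes. Without both βgal replicate 1 arrays the log2 FC was 1.37 for Sqle, 1.13 for Msmo1, 0.72 for Hmgcs1 and 0.49 for Idi1, and no gene of the 8 was called. The call of Sqle was also lost when only the 4 arrays compared were fitted and when either post-βgal array or either post-A20 array was left out, with an adjusted p of 0.0023 to 0.15 over 22 alternatives, and its log2 FC then ran from 1.37 to 2.14.

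The same question in livers with A20 gave no call among the 8, where 1.01% of all genes tested were called. Sqle had the highest log2 FC from pre-A20 to post-A20, 0.45 (SE 0.25, adjusted p = 0.44). Srebf2 was at 0.08, Hmgcs1 at -0.01, Lss at -0.04, Fdps at -0.31, Idi1 at -0.36, Fdft1 at -0.56 (SE 0.17, adjusted p = 0.17) and Msmo1 at -0.67 (SE 0.32, adjusted p = 0.37). The signs of Hmgcs1 and Lss turned when the arrays were quantile normalized. The median was -0.18, against 0.02 over all genes, and it ran from -0.35 to 0.06 over the alternatives. Both post-A20 arrays were above both pre-A20 arrays for Sqle alone, 1 of 8, against 29.4% of all genes, and below both for Fdps, Fdft1 and Msmo1, 3 of 8, against 22.3% of all genes.

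The difference between the 2 responses to LR, A20 minus βgal, was tested as the interaction. None of the 8 passed, as 0 of the 17790 genes tested (0%) did in limma, with 2788 genes at an unadjusted p under 0.05. The difference on the log2 scale was -2.26 for Msmo1 (SE 0.45, 95% interval -3.31 to -1.20, adjusted p = 0.21), -1.33 for Sqle (SE 0.35, 95% interval -2.14 to -0.52, adjusted p = 0.21) and -1.15 for Idi1 (SE 0.46, adjusted p = 0.3). It was -0.78 for Fdft1, -0.62 for Fdps, -0.49 for Hmgcs1, -0.06 for Srebf2 and 0.06 for Lss, whose sign turned when each array was centred on its median. The median of the 8 was -0.70, against 0.05 over all genes. The response was lower with A20 in 7 of the 8, and 43.1% of all genes tested had a lower response. Without both βgal replicate 1 arrays the differences were -1.80 for Msmo1, -0.92 for Sqle and -0.84 for Idi1.

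Before LR, A20 was compared with βgal in livers that had all received a virus 5 days earlier. Msmo1 was called, 3.19-fold higher in pre-A20 (log2 FC 1.67, SE 0.32, adjusted p = 0.0474), 1 of 8 where 2.5% of all genes tested were called. Sqle was 1.63-fold higher without passing (log2 FC 0.70, SE 0.25, adjusted p = 0.16). The log2 FC was 0.61 for Idi1, 0.21 for Fdps, 0.16 for Fdft1, -0.19 for Srebf2, -0.19 for Lss and -0.20 for Hmgcs1, with a median of 0.19 against -0.03 over all genes. Both pre-A20 arrays were above both pre-βgal arrays for Sqle, Fdft1 and Msmo1, 3 of 8, against 22.1% of all genes, and below both for Srebf2, 1 of 8, against 29.3% of all genes. The call of Msmo1 stood in 12 of 22 alternatives. It was lost without both βgal replicate 1 arrays or without pre-βgal replicate 1 alone (log2 FC 1.15 in either), with only the 4 arrays compared, with a minimum signal of 100, and without any of the other arrays apart from pre-βgal replicate 2.

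After LR, all 8 genes had lower means with A20 than with βgal, and none was called, where 0.332% of all genes tested were. Hmgcs1 was 1.62-fold lower (log2 FC -0.70, SE 0.26, adjusted p = 0.22). Fdft1 had a log2 FC of -0.62 (SE 0.17, adjusted p = 0.13), Sqle of -0.62 (SE 0.25, adjusted p = 0.23), Msmo1 of -0.59 (SE 0.32, adjusted p = 0.35) and Idi1 of -0.54 (SE 0.33, adjusted p = 0.38). Fdps was at -0.40, Srebf2 at -0.25 and Lss at -0.13. The median was -0.56, against 0.03 over all genes, and ran from -0.62 to -0.36 over the alternatives. Both post-A20 arrays were below both post-βgal arrays in 7 of 8, all but Lss, which held for 26.4% of all genes, and none of the 8 lay the other way, as 33.7% of all genes did. Since the comparisons share groups, the low pre-βgal and the high post-βgal values of Sqle and Msmo1 each enter 2 of them.

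**Figure D2:**
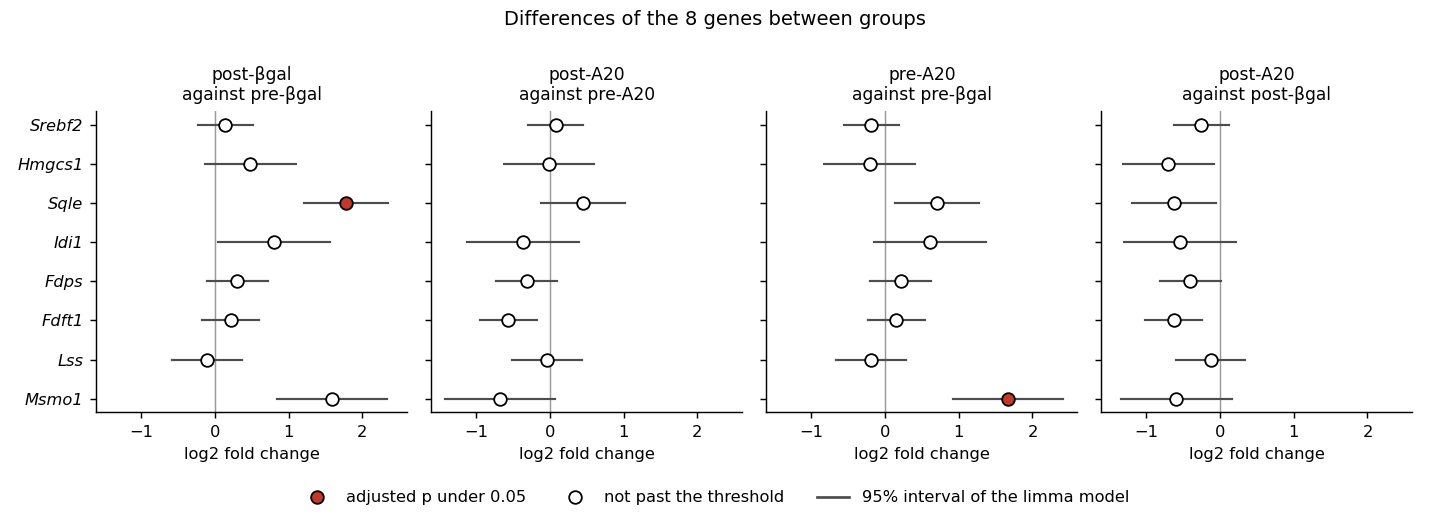
Log2 fold change (points) of the 8 genes with the 95% interval of the limma model (lines) in the 4 comparisons of 2 groups; filled points have an adjusted p under 0.05. In the right panel all 8 points lie below 0, from -0.70 for Hmgcs1 to -0.13 for Lss, and the only filled points are Sqle in the left panel (1.78) and Msmo1 in the third (1.67).

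Averaged over both transgenes, Sqle rose after LR (log2 FC 1.12, SE 0.17, adjusted p = 0.0145), the only one of the 8 called against 4.76% of all genes tested. The call was lost when any array other than the 2 pre-βgal arrays was left out, with a log2 FC of 0.91 to 1.30 over 21 alternatives. Averaged over before and after LR, none of the 8 was called for A20 against βgal, where 5.39% of all genes tested were. The arrays of a group are pools, and nothing in the sources says how mice were shared between pools. Resected lobes and remnant may come from the same mice, and the paper's qPCR used matched pairs when possible. The arrays were fitted without pairing, so p-values measure only the spread between these arrays. In whole liver, fewer cells of a type and less RNA per cell cannot be told apart.

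The genes varied to different degrees over the 8 arrays. The SD of the log2 values was 0.77 for Msmo1 and 0.73 for Sqle, 0.45 for Idi1 and 0.39 for Hmgcs1, and 0.17 to 0.27 for Fdft1, Fdps, Lss and Srebf2. As a description over 8 arrays that share groups, Pearson's r of each gene with the mean of the other 7 was 0.85 for Idi1, 0.82 for Fdps, 0.68 for Sqle, 0.62 for Msmo1, 0.48 for Fdft1, 0.36 for Srebf2, 0.34 for Hmgcs1 and -0.03 for Lss. On the probe set read for Srebf2, the transcript of the regulator thus varied little while the levels of Sqle and Msmo1 varied most. The other Srebf2 probe set, 1426744_at, ranged more widely, from 209 in pre-A20 replicate 2 to 428 in post-βgal replicate 2. Its log2 FC for A20 against βgal, averaged over before and after LR, was -0.43 (adjusted p = 0.090), which was not called. The mean log2 profile of the 8, centred on each gene's mean, was -0.43 and -0.16 in pre-βgal, 0.41 and 0.30 in post-βgal, -0.03 and 0.14 in pre-A20, and -0.01 and -0.24 in post-A20. The post-βgal arrays were highest, and pre-βgal replicate 1, which also had the highest actin ratio, was lowest.

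The other 12 probe sets kept did not all follow the one read for their gene. Hmgcs1 has 5. For 1433444_at the signals were 1215 and 1448 in pre-βgal, 2449 and 2337 in post-βgal, 1772 and 1635 in pre-A20, and 1512 and 1377 in post-A20, with no overlap between any 2 of the groups compared. Its log2 FC was 0.84 from pre-βgal to post-βgal (p adjusted over the 42703 probe sets kept, adjusted p = 0.061) and -0.72 for post-A20 against post-βgal (adjusted p = 0.12). For 1433445_x_at these were 0.51 (adjusted p = 0.21) and -0.62 (adjusted p = 0.19). A weaker one, 1441536_at, had signals of 55.4 and 54.6 in pre-βgal, 299 and 142 in post-βgal, 29.5 and 27.9 in pre-A20, and 29.8 and 25.5 in post-A20. It was kept only through the βgal groups, and both A20 groups lay below the minimum of 40. It was called from pre-βgal to post-βgal (log2 FC 1.65, adjusted p = 0.0391), and in 13 of 20 alternatives. The transcript part it reads was not analysed here.

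A further Hmgcs1 probe set, 1433446_at, read 185 in pre-βgal replicate 1 and 1102 in replicate 2, where 1433443_a_at read 5415 and 3374. The ratio of 1433443_a_at to 1433446_at was 29.3 and 3.06 in pre-βgal, 6.16 and 2.83 in post-βgal, and 2.29 to 3.83 in the A20 arrays. It was highest in the 2 arrays with actin ratios of 7.0 and 3.64. With the log2 β-actin ratio as a covariate the log2 FC of Hmgcs1 after LR with βgal was 0.58 (adjusted p = 0.063). Before LR, A20 against βgal was then at 0.046 for Hmgcs1 (adjusted p = 0.904).

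**Figure D3:**
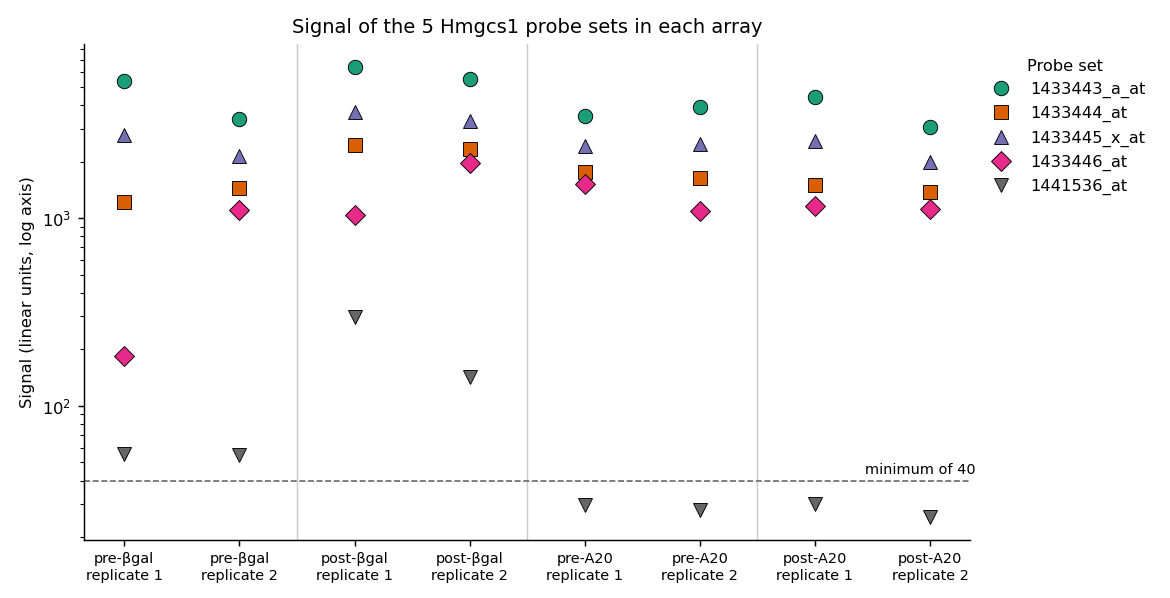
Signal (linear units on a log axis) of the 5 Hmgcs1 probe sets in each of the 8 arrays; the dashed line is the minimum group mean of 40. The probe set 1433446_at falls to 185 in pre-βgal replicate 1 while 1433443_a_at reads 5415 there, and 1441536_at lies above the line in the 4 βgal arrays and below it in the 4 A20 arrays.

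For Idi1 and Srebf2 the further probe set had the signs of the one read. Idi1 1423804_a_at had log2 FCs of 0.37 after LR with βgal and -0.61 for post-A20 against post-βgal, and Srebf2 1426744_at of 0.30 and -0.49, none of them called. Those of Fdft1 disagreed. Where the one read had 0.22 and -0.62, 1438322_x_at had 0.11 and -0.91, 1438919_x_at -0.08 and -0.21, and 1438918_at -0.14 and -0.03, none called. For Lss, 1420014_at had log2 FCs of 0.04 and -0.15, near the one read, and 1426913_at stood apart. It had signals of 72.0 and 85 in pre-βgal, 116 and 124 in post-βgal, 101 and 95.3 in pre-A20, and 72.8 and 83.2 in post-A20. It was higher after LR with βgal by a log2 FC of 0.53 (adjusted p = 0.058). It was lower in post-A20 than in post-βgal (log2 FC -0.54, adjusted p = 0.083). There was no overlap in either comparison, whereas 1420013_s_at overlapped throughout. Msmo1 1459627_at, with signals of 63.6 to 83.1, had the signs of 1423078_a_at in the 4 comparisons of groups, with smaller changes. Its log2 FC was 0.20 after LR with βgal and 0.19 for pre-A20 against pre-βgal, where 1423078_a_at had 1.59 and 1.67. Neither change of 1459627_at was called (adjusted p = 0.25 in both). With the mean of all kept probe sets of a gene in place of the highest, Sqle, Hmgcs1 (log2 FC 1.02, adjusted p = 0.0254) and Msmo1 (log2 FC 0.89, adjusted p = 0.0345) were called in limma after LR with βgal. The mean log2 FC of Hmgcs1 was 0.86 over the 4 probe sets other than 1441536_at. These include 1433446_at, at 1.61 (SE 0.70) with overlapping arrays, while the others were at 0.48, 0.84 and 0.51. The share of all genes called with such means is not given here, so these calls are not set against it.

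Among the other enzymes of the pathway, 10 of 13 listed genes were read. None was called in any of the 4 comparisons of groups, where 0.332% to 2.5% of all genes tested were. After LR with βgal the median log2 FC of the 10 was -0.19, with 3 positive and 7 negative. Hsd17b7, which reduces a sterol ketone during demethylation, had signals of 281 and 230 in pre-βgal, 1058 and 632 in post-βgal, 438 and 637 in pre-A20, and 427 and 749 in post-A20. Its log2 FC was 1.63 after LR with βgal (adjusted p = 0.057) and 0.10 with A20. Cyp51, lanosterol demethylase, which acts upstream of Msmo1, had signals of 679 and 656 in pre-βgal, 1278 and 1238 in post-βgal, 823 and 1181 in pre-A20, and 958 and 801 in post-A20. Its log2 FC was 0.90 after LR with βgal (adjusted p = 0.067), -0.17 with A20, and -0.51 for post-A20 against post-βgal (adjusted p = 0.23). The groups with βgal did not overlap for either gene.

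Of the remaining enzymes, only Nsdhl had both post-βgal arrays above both pre-βgal arrays, and its log2 FC after LR with A20 was 0.07. This held for 3 of the 10, against 20.4% of all genes. Another 3 of the 10 lay the other way, against 33% of all genes. The mevalonate pathway genes Mvk, Pmvk and Mvd had log2 FCs of -0.13, -0.30 and -0.06 after LR with βgal, and the late genes Tm7sf2, Nsdhl, Ebp and Dhcr7 of -0.43, 0.32, -0.40 and -0.24. Sc5d, a late desaturase, had -0.74 with βgal and -0.96 with A20, and fell after LR in the average of both (log2 FC -0.85, adjusted p = 0.0309). For post-A20 against post-βgal the median of the 10 was 0.07, with 5 on each side of 0. Before LR it was 0.30 for A20 against βgal, and after LR with A20 it was -0.04.

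**Figure D4:**
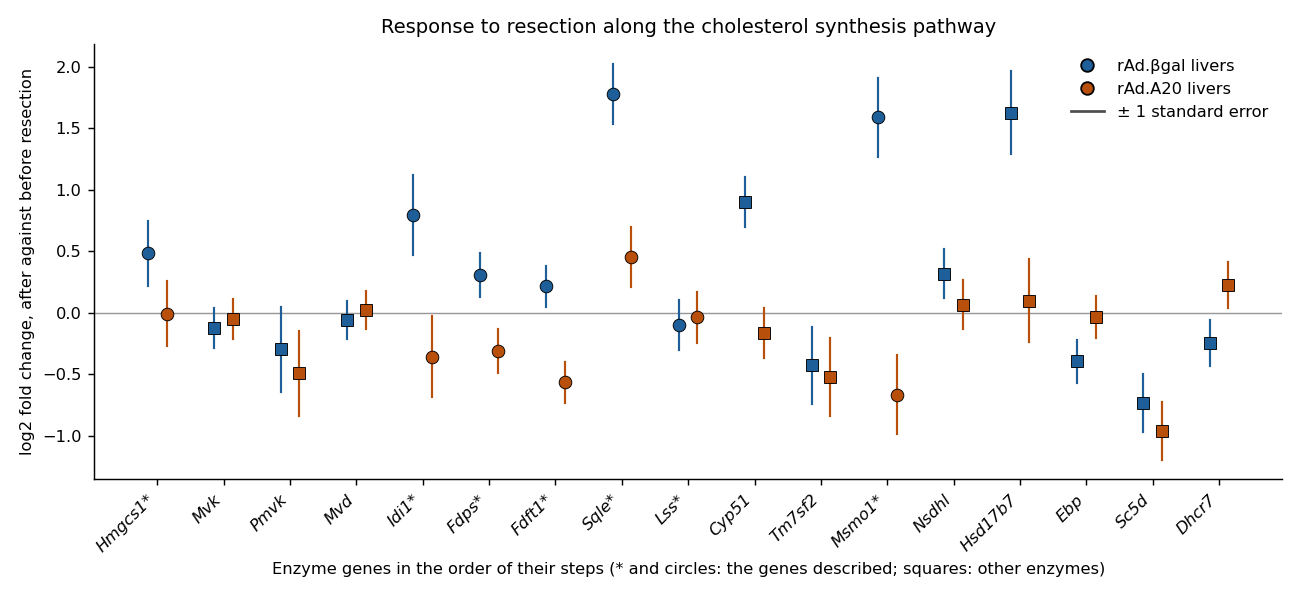
Log2 fold change after against before LR (± 1 SE) of the 7 enzymes described (circles, starred) and 10 other enzymes of the pathway (squares), in the order of their steps, with βgal in blue and with A20 in orange. With βgal the highest points are Sqle (1.78), Hsd17b7 (1.63), Msmo1 (1.59) and Cyp51 (0.90), and with A20 the same genes lie at 0.45, 0.10, -0.67 and -0.17.

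Of 13 genes listed for the control of SREBPs, 12 were read. Srebf1, which encodes SREBP-1, the form that drives fatty acid synthesis, had signals of 2966 and 3526 in pre-βgal, 1090 and 1016 in post-βgal, 2478 and 2945 in pre-A20, and 2064 and 1541 in post-A20. It fell after LR with βgal (log2 FC -1.61, adjusted p = 0.0151), the only called gene of the 12 there, where 2.25% of all genes tested were. With A20 its log2 FC was -0.59 (adjusted p = 0.21). Srebf2 was at 0.14 and 0.08 in these comparisons. Insig2, which retains SREBPs in the endoplasmic reticulum, had signals of 2236 and 3304 in pre-βgal, 4035 and 4553 in post-βgal, 1911 and 2100 in pre-A20, and 5154 and 7073 in post-A20. It rose after LR with A20 (log2 FC 1.58, adjusted p = 0.0279), the only called gene of the 12 there, where 1.01% of all genes tested were. With βgal it was at 0.65 (adjusted p = 0.17). The difference between the 2 responses was 1.01 for Srebf1 (adjusted p = 0.23) and 0.93 for Insig2 (adjusted p = 0.26), so neither was shown to differ between the transgenes. Insig1, itself a target of SREBPs, had log2 FCs of -0.18 with βgal and -0.78 with A20 (adjusted p = 0.18), and Mbtps2 of 0.70 (adjusted p = 0.057) and 0.17.

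Of 10 genes listed for cholesterol uptake and other SREBP-2 targets, 7 were read. Mylip, an LXR target that encodes a ubiquitin ligase, was higher with A20 before LR (log2 FC 0.81, adjusted p = 0.0329), with signals of 193 and 225 in pre-βgal and 368 and 387 in pre-A20. It was the only call of this list in the 4 comparisons, and 2.5% of all genes tested were called in that one. Stard4, a sterol carrier and SREBP-2 target, had signals of 689 and 850 in pre-βgal, 1078 and 864 in post-βgal, 1307 and 1080 in pre-A20, and 506 and 709 in post-A20. Its log2 FCs were 0.33 after LR with βgal and -0.97 with A20 (adjusted p = 0.097). Tmem97 and Npc1 had 0.33 and 0.32 after LR with βgal and 0.01 and -0.15 with A20.

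Of 12 genes listed for sterol export, esterification and bile acids, 9 were read. After LR with βgal, where 2.25% of all genes tested were called, 2 of the 9 were called, both lower. Cyp7a1, the rate-limiting enzyme of bile acid synthesis, had a log2 FC of -1.63 (adjusted p = 0.0394), and Abcg8, a subunit of the canalicular sterol exporter, of -1.06 (adjusted p = 0.0467). With A20, where 1.01% of all genes tested were called, none of the 9 was, at -1.67 for Cyp7a1 (adjusted p = 0.0502) and -0.81 for Abcg8. Of the 9 of 10 isoprenoid branch genes read, none was called in the 4 comparisons, where 0.332% to 2.5% of all genes tested were. Nus1, of dolichol synthesis, had 0.78 after LR with βgal (adjusted p = 0.1) and 0.09 with A20.

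All 15 listed genes of fatty acid synthesis, the SREBP-1 arm, were read. After LR with βgal, where 2.25% of all genes were called, 3 fell and none rose: Acss2, which makes acetyl-CoA from acetate, by a log2 FC of -2.15 (adjusted p = 0.0239), Mlxipl, the carbohydrate-response factor ChREBP, of -1.56 (adjusted p = 0.0406), and Thrsp, a lipogenic protein, of -1.29 (adjusted p = 0.0406). The median of the 15 was -0.59, where that of the 8 cholesterol genes was 0.39. That of the 10 other cholesterol synthesis enzymes was -0.19, with 7 of them negative, so the contrast held for the 8 genes and not for the whole pathway. In 11 of the 15 both post-βgal arrays were below both pre-βgal arrays, as in 33% of all genes, and in none above, as in 20.4%. After LR with A20 Thrsp was the 1 gene called (log2 FC -2.74, adjusted p = 0.0047), where 1.01% of all genes were, and the median was -0.50. Both post-A20 arrays were below both pre-A20 arrays in 10 of the 15, as in 22.3% of all genes, and above in 2, as in 29.4%. Before LR, Thrsp was higher with A20 (log2 FC 1.24, adjusted p = 0.0473).

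Markers of cell types moved with some of the groups. The summed signal of 8 of 10 listed hepatocyte markers lay between 101809 and 111754 in all 8 arrays. That sum is weighted to bright markers such as Alb (18087 to 19358). The group mean of Apob ran from 1178 in pre-βgal to 6304 in post-A20. That of Fgb ran from 11221 in pre-βgal to 18252 in post-βgal. Of the 8 hepatocyte markers read, 1 was called after LR with βgal, where 2.25% of all genes tested were. The summed signal of 8 of 9 listed neutrophil markers was 5332 to 6124 in post-βgal, 3707 to 4361 in pre-βgal, 2799 to 3054 in post-A20 and 2300 to 2409 in pre-A20. That of 8 Kupffer cell markers was 3683 to 3903 in pre-A20 and 4536 to 6620 in the other groups. Before LR, 6 of these 8 were lower with A20 and 2 higher. Marco was highest in pre-A20 (248 and 254, against 184 and 159 in pre-βgal). The sum of 7 stellate markers was 2239 to 2348 in post-βgal and 2617 to 3399 in the other groups. That of 6 of 8 listed lymphocyte markers was 2176 to 2354 in post-A20 and 1739 to 2076 in the other groups. It is weighted to Cd3e, which read 1152 and 1139 in post-A20 and 717 to 921 in the other groups. The weaker Ms4a1 also had its highest mean in post-A20, whereas Cd3g, Cd8a, Cd4 and Nkg7 did not. The sums of 8 endothelial and 5 of 6 listed biliary markers were 3636 to 4367 and 1102 to 1491 over all arrays. Of these neutrophil markers, S100a8 and S100a9 together summed to 3352 to 3995 in post-βgal, 1253 to 2071 in pre-βgal, 569 to 815 in post-A20 and 265 to 312 in pre-A20. The other 6 neutrophil markers summed to 2290 to 2455 in pre-βgal, 2231 to 2239 in post-A20, 1987 to 2145 in pre-A20 and 1980 to 2128 in post-βgal. The mean profile of the 8 cholesterol genes was highest in post-βgal. The part of these cells in the results was not tested.

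The 10 genes most like the mean profile of the 8, by Pearson's r over the 8 arrays among 17782 other genes, were Cct8 (0.96), Calr3, Mrpl35, Ccdc51, Dcun1d5, Cdk7, Exosc1, Ssu72, Btf3 and Capza2 (0.94). Cct8, a subunit of a cytosolic chaperonin, had signals of 1202 and 1464 in pre-βgal, 2004 and 1916 in post-βgal, 1420 and 1677 in pre-A20, and 1476 and 1455 in post-A20. None of the 10 is a gene of the lists, and the nearest enzyme of the pathway was Cyp51 at rank 24 (r 0.92), followed by Hsd17b7 at rank 885 (r 0.69). Mbtps2 stood at rank 227 (r 0.83), while Srebf1 had r of -0.65.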

How the data were processed

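Liver RNA of 4 groups of 2 arrays was measured, 3 mice pooled per array. The authors deposited 1 table of normalized intensity per probe set on a linear scale. For its making, dChip with invariant set normalization is given in the methods and MAS5 in the sample records, and the choice between them could not be settled. No scaling was added.

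Probe sets were named through the annotation of the array (34945 with 1 symbol, 932 with several, 9160 with none, 64 controls left out). The value 16 was added before log2, and a probe set was kept if a group mean reached an intensity of 40, which left 42703, of them 33500 with 1 symbol. limma 3.58.1 in R 4.3.3 fitted all 8 arrays with 1 mean per group and a variance trend (4 residual and 3.73 prior degrees of freedom). Tests were 2-sided, in 7 comparisons, and were tested on simulated data. The probe set with the highest mean stood for its gene, with p adjusted by Benjamini-Hochberg over 17790 genes, and further probe sets over all 42703. A difference is called at an adjusted p under 0.05. Only 2 arrays per group limit the precision.

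Named were the 8 genes throughout, the other enzymes of the pathway, up to 4 genes of each other list by the smallest p in the 4 comparisons of 2 groups, though not all of these are printed, and the 10 genes most like the mean profile. The genes and lists were chosen with earlier results of these data known. Some listed genes were not analysed here. Alternatives changed the scaling, minimum, offset, variance model, probe set choice, call criterion, arrays fitted, replicate block and an RNA integrity covariate. Promoter windows were searched with Python for each motif on both strands.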

Additional observations from a re-analysis of the deposited data

How the results depend on the processing

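With the replicate numbers as a block, over all 8 arrays or within each transgene, 2 of the 8 genes were called after LR with βgal in place of 1. No other count of called genes among the 8 changed. The share of all genes called with a block is not given here. The labels give no meaning to the numbers, so they were not taken as pairs. Deviations of same-numbered arrays correlated at 0.62 between pre-βgal and post-βgal and at -0.14 to 0.16 otherwise. Both βgal replicate 1 arrays also had the highest actin ratios, 7.0 and 3.64.

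Called genes of the 8 after LR with βgal were 2 with the interval criterion (a fold whose 90% interval lies at 1.5 or beyond, met by 2.09% of all genes), with median centring, without a variance trend, with the RNA integrity covariate and with a variance model on 1 probe set per gene (chosen after seeing the data). They were 3 with the mean of all probe sets, 0 with only the 4 arrays compared, 0 without both βgal replicate 1 arrays, and 0 to 2 on leaving out 1 array. For pre-A20 against pre-βgal they were 0 with a minimum of 100, with only the 4 arrays and without both βgal replicate 1 arrays, and 0 to 2 on leaving out 1 array. For post-A20 against post-βgal 1 was called with the mean of all probe sets, Hmgcs1, whose mean log2 FC of -0.94 takes in 1441536_at, below the minimum in both A20 groups, and is -0.59 without it. In the averages, leaving out 1 array gave 0 to 2 for A20 against βgal and 0 to 2 for after against before LR. For the difference of the responses, 2 were called by the interval criterion (1.23% of all genes), 1 (Msmo1, adjusted p = 0.0299) with the RNA covariate, and 0 to 1 on leaving out 1 array. Apart from the interval criterion, the shares of all genes called in these settings are not given here. The counts therefore cannot be read as particular to the 8 genes. The causes were not tested.

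Signs turned 29 times for single genes, all of them uncalled. After LR with βgal, Lss was at 0.15 with the mean of all probe sets and at -0.25 to 0.039 on leaving out 1 array, and Srebf2 at -0.00089 without both βgal replicate 1 arrays. After LR with A20, quantile normalization gave 0.026 for Hmgcs1 and 0.0053 for Lss, and the RNA covariate 0.036 for Hmgcs1. Leaving out 1 array gave -0.28 to 0.26 for Hmgcs1, -0.21 to 0.13 for Lss, -0.038 to 0.20 for Srebf2 and -0.74 to 0.030 for Idi1. Before LR, A20 against βgal was at 0.19 for Hmgcs1 and 0.00011 for Lss with the mean of all probe sets, and Hmgcs1 at 0.046 with the RNA covariate, 0.14 without both βgal replicate 1 arrays, and -0.54 to 0.14 on leaving out 1 array. After LR, A20 against βgal was at -0.30 to 0.043 for Lss on leaving out 1 array. For the difference of responses, Lss was at -0.025 with median centring, -0.27 with the mean of all probe sets and -0.11 to 0.23 on leaving out 1 array, and Srebf2 at 0.081 without both βgal replicate 1 arrays and -0.18 to 0.055 on leaving out 1 array.

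Of the other genes named as called, none changed sign, and each lost its call in at least 1 alternative, from 1 of 22 for Thrsp after LR with A20 to 10 of 22 for Abcg8 after LR with βgal.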
